A study of Sus scrofa with 23 samples.

Results

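The genes described here are 6 enzymes of cytosolic sugar and redox metabolism in the pig: PFKM, GPI, PGK1 and LDHA of glycolysis, GPD1 of the glycerol phosphate shuttle and ME1, the cytosolic malic enzyme. They were chosen by name, with earlier results of these data known. A probe set is a group of array probes reporting 1 transcript. Every probe set with 1 of the 6 symbols as its only symbol in the platform annotation was taken. That gave 7 of the 24123 probe sets on the array, 2 for ME1 and 1 for each other gene, and all 7 were tested because no filter on low signals was applied. The samples were 23 offspring of German Landrace gilts, each measured on a porcine Affymetrix array as 1 linear signal per probe set. The 4 stages were 94 dpc with 5 samples, and 1 dpn, 28 dpn and 188 dpn with 6 samples each. Here dpc is read as days after conception, which is before birth, and dpn as days after birth. The gilts of all 4 stages received the gestational low protein diet, so the arrays compare ages within that diet and hold no test of it. The animals of each stage came from 3 gilts. No label names the dam of a sample, so some of a stage shared a dam and the p-values may be too small.

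Glycolysis splits glucose into pyruvate in the cytosol and yields ATP without oxygen, at the cost of reducing NAD+ to NADH. The NADH is turned back to NAD+ either by lactate dehydrogenase, which makes lactate, or by shuttles that pass the electrons to the mitochondrion: the glycerol phosphate shuttle, through GPD1, and the malate-aspartate shuttle, through MDH1 and GOT1. Fast-contracting skeletal muscle is known for high levels of the glycolytic enzymes and of GPD1, while malic enzyme makes the NADPH used in fatty acid synthesis.

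The labelled tissue was in conflict with itself: each sample is labelled liver, whereas the series title names muscle. Markers of both tissues gave signal, but not evenly. At 188 dpn 13 muscle markers summed to 771540 to 995538, and 12 hepatocyte markers to 2970 to 27626. At 94 dpc these sums were 374990 to 453319 and 12053 to 39587. CKM, the muscle creatine kinase, had signals of 73410 to 102161 at 188 dpn and 39615 to 48137 at 94 dpc. ALB, the albumin of hepatocytes, had 744 to 9137 at 188 dpn and 163 to 1159 at 94 dpc. APOA1, an apolipoprotein of liver and gut, had 871 to 2038 at 188 dpn and 7128 to 10556 at 94 dpc. Of the other hepatocyte markers, APOB and CPS1 were dim, with 17.2 to 186 and 17.4 to 261 at 188 dpn. At 94 dpc they had 2.21 to 163 and 52.3 to 112. AHSG had 141 to 1128 at 188 dpn and 1895 to 13295 at 94 dpc. As the label and the title conflict, the tissue is not named below. At 1 dpn, 3 samples (replicates 2, 4 and 5) had a 5′ to 3′ signal ratio of the GAPDH control probe sets between 0.0868 and 0.148, against 1.09 to 1.29 in the other 20 samples of the series. A low ratio can mark short RNA, and the log2 differences and the counts of calls that use 1 dpn were also computed without these 3 samples. A second pair of GAPDH control probe sets also set them apart, with ratios of 0.226, 0.297 and 0.318 against 0.546 to 0.731 in the other 20 samples. The actin control ratio did not set them apart: it was 1.01, 0.817 and 0.985 in them and 0.999 to 1.21 in the other 1 dpn samples. Over the stages it was 0.82 to 1.1 at 94 dpc, 0.817 to 1.21 at 1 dpn, 1.32 to 1.61 at 28 dpn and 1.29 to 1.42 at 188 dpn, and its part in the stage differences was not tested. Samples of 1 dpn were also least alike, with median correlations to their own stage of 0.89 to 0.914, against 0.925 to 0.952 at the other stages. The fit took 1 spread for all stages, so errors with 1 dpn may be understated and the others overstated.

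All 6 enzyme genes were higher at 188 dpn than at 94 dpc, by 6.05-fold (PGK1) to 17.3-fold (ME1). PFKM, GPI and PGK1 were higher at 1 dpn than at 94 dpc and higher again at 28 dpn. LDHA and GPD1 passed at 28 dpn against 1 dpn. ME1 passed at 1 dpn against 94 dpc and at 188 dpn against 28 dpn. Folds are differences of stage means of log2(signal + 16), turned back to ratios, and they understate the change of dim transcripts. Signals are given as mean ± SD (n = 5 at 94 dpc, n = 6 at each other stage), and log2 differences with their SE.

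As the 6 genes were chosen with earlier results known, the shares of all genes given here and below describe them and test nothing. Read against all genes, 4 of 6 genes were higher at 1 dpn than at 94 dpc, where 13.7% of the 6765 genes were called higher (adjusted p under 0.05). Between 28 and 1 dpn the count was 5 of 6, against 13.5% of all genes. It was 1 of 6, ME1, between 188 and 28 dpn, against 5.78%. All 6 were higher at 28 dpn than at 94 dpc (14.8% of all genes), at 188 dpn than at 1 dpn (16.7%) and at 188 dpn than at 94 dpc (19.5%). The median log2 difference of the 6 genes was 1.21 for 1 dpn against 94 dpc, 1.96 for 28 against 1 dpn and 3.54 for 188 dpn against 94 dpc. Over all genes those medians were -0.06, 0.03 and -0.08. By probe sets, 4, 5 and 2 of 7 were higher for 1 dpn against 94 dpc, 28 against 1 dpn and 188 against 28 dpn, where 8.08%, 10.1% and 4.66% of all probe sets were. All 7 were higher at 28 dpn than at 94 dpc, at 188 than at 1 dpn and at 188 dpn than at 94 dpc, against 8.87%, 13.6% and 13.3%. The second ME1 probe set was the weakest of these calls at 28 dpn against 94 dpc (log2 0.81, adjusted p = 0.04), and it was lost with 8 of the 11 single samples left out. None of the 6 genes was lower in a comparison, where 19.4% of all genes were lower at 1 dpn than at 94 dpc, 10.6% at 28 than at 1 dpn, 12.5% at 188 than at 28 dpn, 17.5% at 28 dpn than at 94 dpc, 21.3% at 188 than at 1 dpn and 27.4% at 188 dpn than at 94 dpc. Without the 3 samples of low GAPDH ratio the counts for 1 dpn against 94 dpc, 28 against 1 dpn and 188 against 1 dpn were 4, 5 and 6 of 6, where 14.3%, 10.4% and 14.1% of all genes were called higher.

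**Figure D1:**
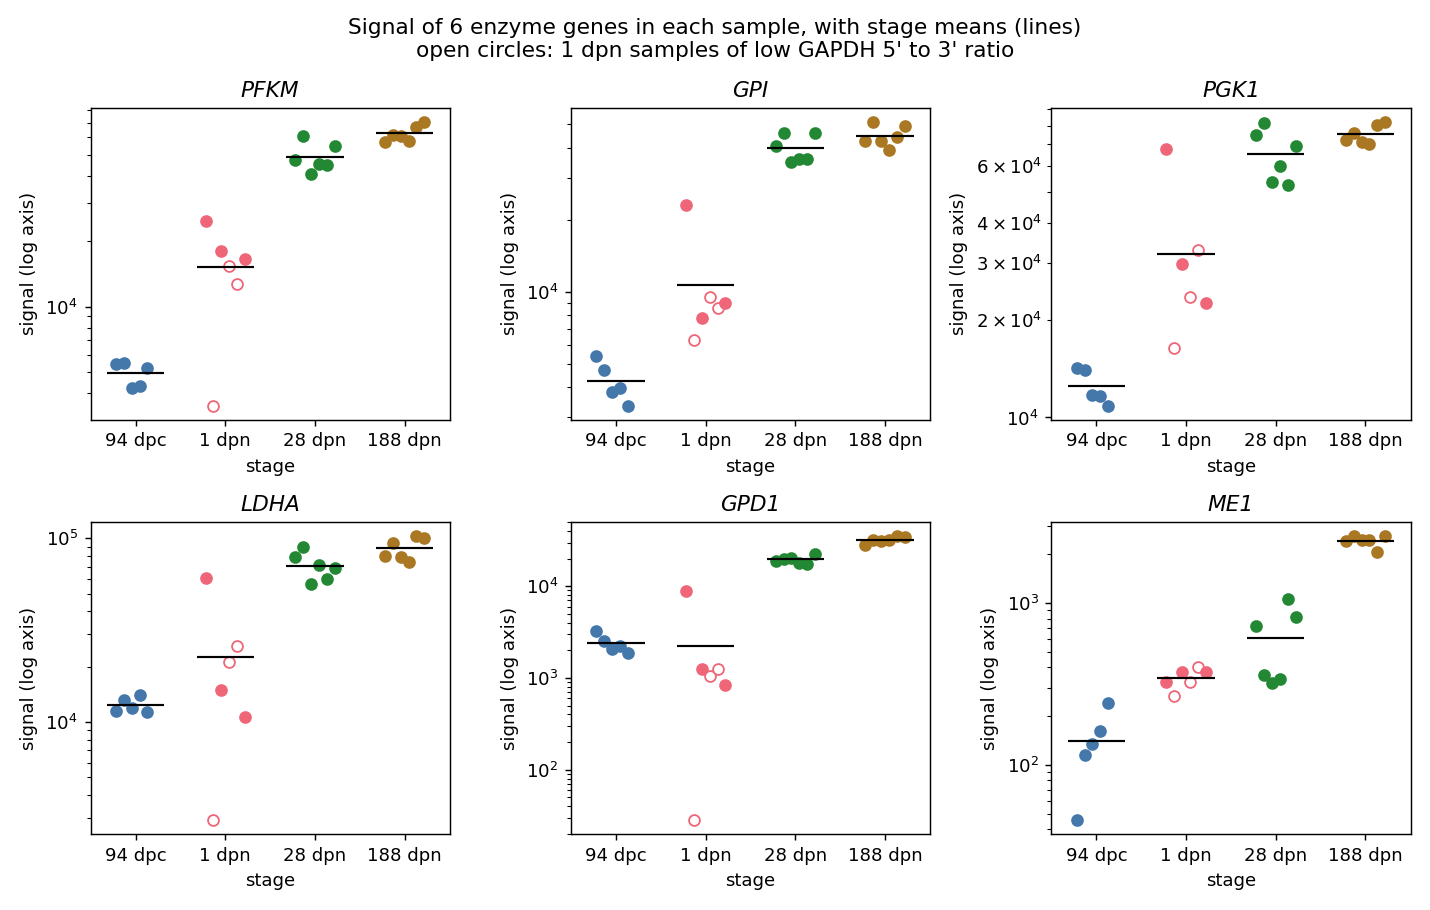
Signal of each gene in each of the 23 samples (points, log axis) at the 4 stages, with the stage mean as a line. Open circles mark the 3 samples of low GAPDH ratio at 1 dpn. In GPD1 a single 1 dpn sample lies at 28.2 and another at 8887, while the 28 dpn samples lie between 17594 and 22677.

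GPI, glucose-6-phosphate isomerase, turns glucose 6-phosphate into fructose 6-phosphate. Its signals (probe set Ssc.2375.1.S1_at) were 5393, 4712, 3809.9, 3968 and 3348 at 94 dpc. The lowest, median and highest were 6279.7, 8767 and 23024 at 1 dpn, 34794, 38235 and 46176 at 28 dpn, and 39194, 43492 and 51274 at 188 dpn. The 94 dpc samples lay wholly below those of 1 dpn, which lay wholly below those of 28 dpn, and the ranges of 28 and 188 dpn overlapped. GPI averaged 10686 ± 6149.5 at 1 dpn and 4246 ± 807 at 94 dpc (SD, n = 6 and n = 5), a log2 difference of 1.21 ± 0.24 (SE, adjusted p = 0.0005). It was 4.09-fold higher at 28 dpn than at 1 dpn (log2 2.03, adjusted p = 1.7e-06). The 0.17 between 188 and 28 dpn did not pass (95% interval -0.29 to 0.64, adjusted p = 0.7).

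PFKM is the muscle subunit of phosphofructokinase, which commits sugar to glycolysis. Its signals (Ssc.4741.1.S1_at) were 5449, 5521, 4222, 4328 and 5217 at 94 dpc. The lowest, median and highest were 3501, 15954 and 24667 at 1 dpn, 40928, 46382 and 60781 at 28 dpn, and 57324, 61412 and 70847 at 188 dpn. A single 1 dpn sample lay below every 94 dpc sample and the other 5 above all of them, whereas no 28 dpn sample came down to the 1 dpn range. PFKM was 2.66-fold higher at 1 dpn than at 94 dpc (log2 1.41 ± 0.31, adjusted p = 0.0015). It was 3.70-fold higher at 28 dpn than at 1 dpn (log2 1.89 ± 0.30, adjusted p = 0.00011). With the GAPDH ratio as a covariate these were 2.11 and 1.18 on the log2 scale. The 0.36 between 188 and 28 dpn did not pass (95% interval -0.25 to 0.98, adjusted p = 0.5).

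PGK1, phosphoglycerate kinase, makes ATP in the later steps of the pathway. Its signals (Ssc.935.1.S1_at) were 14220.4, 13991, 11737, 11661 and 10881 at 94 dpc. The lowest, median and highest were 16394, 26713 and 67638 at 1 dpn, 52441, 64586 and 81602 at 28 dpn, and 70237, 74305 and 82276 at 188 dpn. All 1 dpn samples lay above all 94 dpc samples, and the highest of them, replicate 1, lay inside the 28 dpn range. PGK1 was 2.32-fold higher at 1 dpn than at 94 dpc (log2 1.22, adjusted p = 0.00065). It was 2.23-fold higher at 28 dpn than at 1 dpn (log2 1.16 ± 0.23, adjusted p = 0.0013), which was 0.80 and no longer called with the GAPDH ratio as a covariate (adjusted p = 0.051). Between 188 and 28 dpn the interval of the difference ran from -0.26 to 0.71 (adjusted p = 0.61), and quantile normalization turned its sign.

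LDHA is the lactate dehydrogenase subunit that predominates in fast muscle. Its signals (Ssc.13826.1.S1_at) were 11450.1, 13171, 11897, 14047 and 11337 at 94 dpc. The lowest, median and highest were 2915, 18029 and 60609.6 at 1 dpn, 56277, 70244 and 90079 at 28 dpn, and 74187, 87497 and 102737 at 188 dpn. The 1 dpn samples spread below and above the 94 dpc samples, and the brightest reached the 28 dpn range. The log2 difference of 0.35 between 1 dpn and 94 dpc did not pass (95% interval -0.55 to 1.26, adjusted p = 0.61). Without 1 dpn replicate 2 it was 0.84 and called (adjusted p = 0.043), and without replicate 1 it was -0.03 (adjusted p = 0.96). LDHA was 4.44-fold higher at 28 dpn than at 1 dpn (log2 2.15 ± 0.42, adjusted p = 0.0009), and 5.67-fold higher at 28 dpn than at 94 dpc (adjusted p = 0.00019). With the GAPDH ratio as a covariate LDHA was 1.54 higher at 28 than at 1 dpn on the log2 scale. Between 188 and 28 dpn the difference was 0.33 and did not pass (95% interval -0.54 to 1.19, adjusted p = 0.69).

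GPD1, cytosolic glycerol-3-phosphate dehydrogenase, reduces dihydroxyacetone phosphate with NADH and also supplies the glycerol backbone of fats. Its signals (Ssc.5657.1.S1_at) were 3255, 2513, 2068, 2230.0 and 1849.7 at 94 dpc. At 1 dpn they were 8887, 28.2, 1262, 1039, 1254 and 834 in replicates 1 to 6. The lowest, median and highest were 17594, 19437 and 22677 at 28 dpn and 27965, 31825 and 35181 at 188 dpn. All but 1 of the 1 dpn samples lay below every 94 dpc sample, the exception being replicate 1, and the 28 and 188 dpn samples were separate from each other and from both earlier stages.

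At 1 dpn, GPD1 had a log2 difference of -1.37 ± 0.71 from 94 dpc, which did not pass (95% interval -2.84 to 0.10, adjusted p = 0.17). It was -2.03 and called without 1 dpn replicate 1 (adjusted p = 0.013), -0.50 without replicate 2 (adjusted p = 0.41), and -0.14 without the 3 samples of low GAPDH ratio (adjusted p = 0.86). GPD1 was 21.5-fold higher at 28 dpn than at 1 dpn (log2 4.42 ± 0.68, adjusted p = 8.1e-05), the highest fold of the 6 genes in that comparison. That log2 difference was 5.08 without replicate 1, 3.55 without replicate 2, 3.20 without the samples of low GAPDH ratio (adjusted p = 0.00011) and 2.91 with the ratio as a covariate. It was 8.31-fold higher at 28 dpn than at 94 dpc (adjusted p = 0.0028). GPD1 averaged 32144 ± 2574 at 188 dpn and 19613 ± 1875 at 28 dpn (SD, n = 6 each). The log2 difference of 0.71 did not pass in the fit of all stages (95% interval -0.69 to 2.11, adjusted p = 0.57) and passed when only these 2 stages were fitted (adjusted p = 0.0015).

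ME1 oxidises malate to pyruvate and makes NADPH in the cytosol. Its brighter probe set (Ssc.16336.1.S1_at) had signals of 45.6, 115, 134, 162 and 242 at 94 dpc. The lowest, median and highest were 267, 349 and 404 at 1 dpn, 320.4, 540.4 and 1065 at 28 dpn, and 2078, 2446 and 2587 at 188 dpn. The 1 dpn samples lay above all 94 dpc samples, the 1 and 28 dpn samples overlapped, and the 188 dpn samples stood apart above all others. ME1 was 2.54-fold higher at 1 dpn than at 94 dpc (log2 1.34 ± 0.31, adjusted p = 0.0024). The 0.64 between 28 and 1 dpn did not pass (95% interval 0.02 to 1.25, adjusted p = 0.16).

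ME1 averaged 2429 ± 187 at 188 dpn and 603 ± 311 at 28 dpn (SD, n = 6 each), a 4.39-fold difference (log2 2.13 ± 0.30, adjusted p = 3.7e-05). Its second probe set (Ssc.16336.1.S2_at) had a lowest, median and highest signal of 27.2, 44.9 and 66.6 at 94 dpc, 26.2, 64.6 and 147 at 1 dpn, 61.9, 82.9 and 128 at 28 dpn, and 223, 312 and 337 at 188 dpn. That probe set too was separate and higher at 188 than at 28 dpn, by 3.12-fold (adjusted p = 0.00019). The probe sets disagreed on the call at 1 dpn against 94 dpc, where the second had a log2 difference of 0.56 (adjusted p = 0.16). With the mean of the probe sets in place of the brighter one, ME1 was 3.28 higher on the log2 scale at 188 dpn than at 94 dpc, in place of 4.11.

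**Figure D2:**
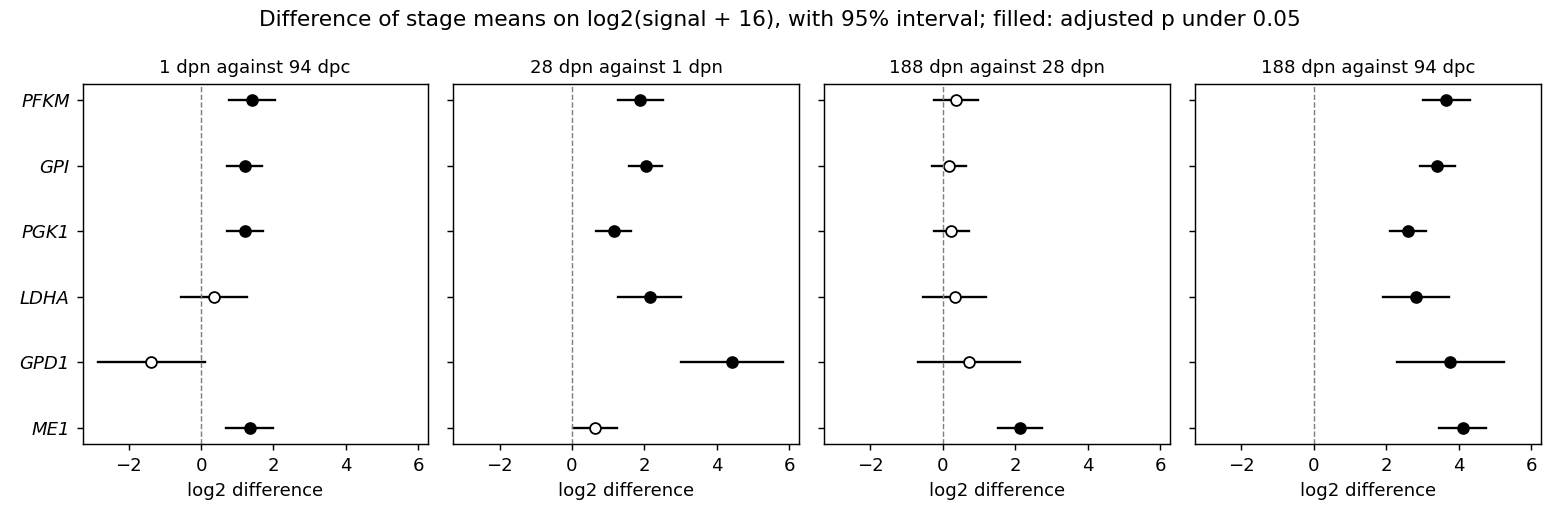
Log2 difference of stage means for each gene, later minus earlier stage, in 4 comparisons (points), with 95% intervals (lines). Filled points passed an adjusted p under 0.05. Between 188 and 28 dpn the only filled point is ME1 at 2.13.

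At 188 dpn against 94 dpc the log2 differences were 3.66 for PFKM, 3.41 for GPI, 2.60 for PGK1, 2.83 for LDHA, 3.77 for GPD1 and 4.11 for ME1. With quantile normalization PGK1 and LDHA differed by 1.87 and 2.06. In this comparison, in 28 dpn against 94 dpc and in 188 against 1 dpn, the samples of the later stage lay above those of the earlier in all 6 genes, as they did in 16.9%, 14.2% and 8.91% of all genes. For 1 dpn against 94 dpc and 28 against 1 dpn this held in 3 of 6 genes each, against 8.01% and 5.96% of all genes. It held in GPD1 and ME1 between 188 and 28 dpn, against 6.27%. In the resulting orders of level, neighbours not called different in the fit of all stages are written together. The order was 94 dpc, 1 dpn, then 28 with 188 dpn for PFKM, GPI and PGK1. For LDHA and GPD1 the order was 94 dpc with 1 dpn, then 28 with 188 dpn, the last pair of GPD1 being separate but not called in the fit of all stages. For ME1 it was 94 dpc, then 1 with 28 dpn, then 188 dpn.

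At 1 dpn the ends of the range fell on the same samples in most of the 6 genes. Replicate 1 was the highest of the 6 samples in 5 of 6 genes, where it was so in 22% of all genes, and replicate 2 was the lowest in 6 of 6, where it was so in 22.8%. Both held in 5 of 6 genes (all but ME1), against 8.29% of all genes. These counts take the brighter ME1 probe set, and in the second replicate 1 was lowest, at 26.2, against 79.3 in replicate 2. The highest signal was 20.8 times the lowest in LDHA, 7.05 times in PFKM, 4.13 times in PGK1, 3.67 times in GPI and 1.51 times in ME1. For GPD1 no such ratio is given, because the 28.2 of replicate 2 is a dim signal without a detection call. Replicate 2 was 1 of the 3 samples of low GAPDH ratio. The samples of low ratio held different positions in different genes. In PFKM they were the 3 lowest, with 3501, 15305 and 12672 in replicates 2, 4 and 5, against 24667, 18002 and 16603 in replicates 1, 3 and 6. In LDHA replicates 4 and 5 had 21088 and 25942, above the 14970.1 and 10597 of replicates 3 and 6. Summed over 13 measured of 16 listed skeletal muscle markers, replicate 1 had 799875, replicate 2 had 478358 and the other 4 samples 444422 to 598711. Summed hepatocyte markers (12 of 13) were 21004, 20038 and 17110 in replicates 2, 4 and 5, against 8457, 4736 and 8976 in replicates 1, 3 and 6. The part of RNA quality or of other cell types in the spread was not tested.

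**Figure D3:**
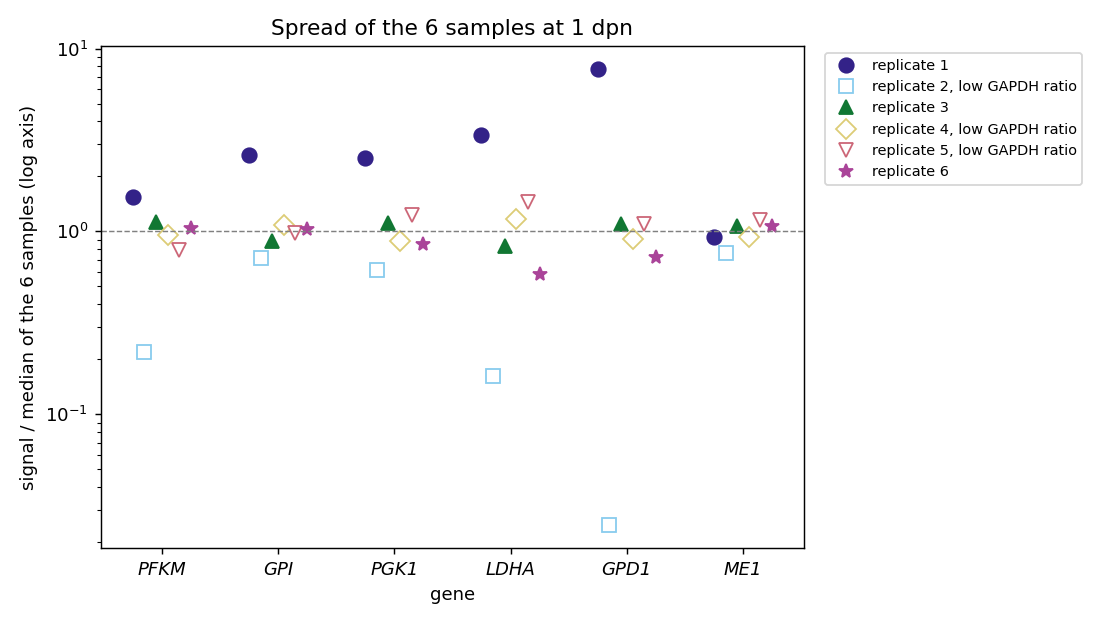
Signal of each of the 6 samples at 1 dpn divided by the median of the 6, per gene (log axis). The brighter probe set is shown for ME1. Replicate 2 (open square) is lowest in every gene, and replicate 1 (filled circle) is highest in 5 of 6, in GPD1 at 8887 against 28.2 in replicate 2.

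Marker lists of the cell types a sample could hold also differed between stages. In bulk samples, fewer cells of a type and less RNA per cell cannot be told apart. The skeletal muscle sum was 374990 to 453319 at 94 dpc, 444422 to 799875 at 1 dpn, 556395 to 895136 at 28 dpn and 771540 to 995538 at 188 dpn. MYH2, a fast myosin heavy chain, had 3208 to 16974, 4305 to 12416, 58689 to 103288 and 81075 to 113598 at these stages, so it was separate between 28 and 1 dpn, as were PFKM, GPI and GPD1. MYH7, the slow myosin heavy chain, had 21132 to 27894, 27106 to 55608, 44637 to 69383 and 50166 to 70605. Fibroblast and matrix markers (5 of 6 measured) summed to 35351 to 53464, 10039 to 27125, 11756 to 28116 and 8151 to 13455 in stage order. Endothelial markers (6 of 6) summed to 8726 to 14733, 3166 to 5275, 6071 to 8738 and 2559 to 3880, and erythroid markers (4 of 8) to 991 to 1426, 445 to 1337, 847 to 2074 and 445 to 649. Both sums were separate and lower at 188 dpn than at 28 dpn, the stages between which ME1 was higher. Adipocyte markers (6 of 8) summed to 6371 to 8519, 18444 to 33126, 10436 to 20104 and 10175 to 13075. Most of that sum came from PNPLA2, a lipase also found in muscle, with 1740 to 2245, 11288 to 25726, 4910 to 11784 and 7059 to 9642, and from FABP4, a fatty acid binding protein. FABP4 had 2298 to 3534 at 188 dpn and 4776 to 10422 at 28 dpn, separate and lower. ADIPOQ, LEP, CIDEA and LIPE were dimmer, and the range of each overlapped between 188 and 28 dpn, ADIPOQ with 79.8 to 191 and 59 to 256. Hepatocyte markers summed to 12053 to 39587, 4736 to 21004, 2005 to 34917 and 2970 to 27626, with medians of 19359, 13043, 3168 and 9659. The ranges overlapped at all stages, but that of 28 dpn met those of 94 dpc and 1 dpn only through its replicate 1, at 34917. The other 28 dpn samples, at 2005 to 4140, lay below every sample of those stages. No detection calls were used, so no marker could be called absent, and the part of cell composition in the enzyme levels was not tested.

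Isoforms of the same enzymes were measured too. They were taken from lists of pathway genes, and PFKP, LDHB, ME2 and GPD1L were singled out after their values were seen. PFKL, the liver subunit of phosphofructokinase, averaged 260.1 ± 52.4 at 188 dpn and 1080 ± 206 at 94 dpc, a log2 difference of -1.99 (adjusted p = 8.8e-06), while PFKM differed by 3.66. PFKP, the platelet subunit, differed by -1.14 (adjusted p = 0.023), a call lost with quantile normalization and with median centring. LDHB, the heart subunit of lactate dehydrogenase, averaged 24465 ± 10513 at 1 dpn, 17793 ± 1285 at 28 dpn and 9798 ± 2594 at 188 dpn (SD, n = 6 each). It was lower at 188 dpn than at 28 dpn by a log2 difference of -0.90 (adjusted p = 0.01), where LDHA differed by 0.33. ME3, a mitochondrial malic enzyme, averaged 353 ± 70.4 at 188 dpn and 1426 ± 508 at 1 dpn (log2 -1.91, adjusted p = 1.7e-05), while ME1 was 2.77 higher. ME2, another mitochondrial malic enzyme, was lower at 188 than at 28 dpn by -0.74 (adjusted p = 0.019), a call lost with quantile normalization (adjusted p = 0.051), without 28 dpn replicate 4 (0.052) and without 188 dpn replicate 5 (0.053). GPD1L, a relative of GPD1, was 0.85 higher at 28 than at 1 dpn (adjusted p = 0.0029), against 4.42 for GPD1. The comparison shown is not the same for each isoform. At 188 dpn against 94 dpc, LDHB (log2 -0.61, adjusted p = 0.052), ME2 (-0.47, 0.1) and ME3 (0.14, 0.77) were not called. ME3 averaged 363 ± 226 at 94 dpc, below its 1 dpn mean. The differences between isoforms were not themselves tested.

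Among the other glycolytic enzymes, 16 of 24 listed genes were measured. Between 188 dpn and 94 dpc, 7 were higher, 6 lower and 3 not called, where 19.5% of all genes were higher and 27.4% lower, and their median log2 difference was -0.07 against -0.08 over all genes. Of the 6 lower genes, ADPGK (adjusted p = 0.17) and PFKP (0.15) lost their calls with quantile normalization, where 5 genes of the list were lower. With median centring 3 were lower, and ADPGK, ENO1 and PFKP lost their calls. The probe sets of HK3, a hexokinase among the 6, disagreed. The brightest was lower by -1.95 (adjusted p = 0.0013), another was higher by 1.97 (adjusted p = 0.0046), and the remaining one was not called. TPI1, triose phosphate isomerase, was 5.80-fold higher (log2 2.54, adjusted p = 3.8e-06), PKM, pyruvate kinase, 3.18-fold (adjusted p = 2.8e-08), and PGAM2, the muscle phosphoglycerate mutase, 3.05-fold (log2 1.61, adjusted p = 9.3e-05). The other probe set of PKM was not called in that comparison (log2 0.94, adjusted p = 0.067). With quantile normalization PGAM2 differed by 0.99. HK1, a hexokinase, was lower by -1.88 (adjusted p = 1.1e-07). GAPDH was 0.64 higher (adjusted p = 0.0055), and quantile normalization turned its sign to -0.10. Its other probe sets differed by 0.26 to 3.67 on the log2 scale. For 1 dpn against 94 dpc, 2 of the 16 were higher and 1 lower, against 13.7% and 19.4% of all genes, and without the samples of low GAPDH ratio 5 and 1, against 14.3% of all genes higher. With each array centred on its median that count was 8 higher and 1 lower, and of all called probe sets 59.4% were higher with this centring, against 31.2% as deposited. Between 28 and 1 dpn, 2 of the 16 were higher and 1 lower, against 13.5% and 10.6% of all genes. Without the samples of low GAPDH ratio 1 was higher and 2 lower, against 10.4% of all genes higher. Between 188 and 28 dpn, 1 was higher, PKM (log2 1.25, adjusted p = 1.3e-05), and 4 lower, against 5.78% and 12.5% of all genes. Among the 4 was ENO1, an enolase (-1.07, adjusted p = 0.0057). HK3 was also among them, by -1.61 in its brightest probe set (adjusted p = 0.013). Another of its probe sets was higher by 2.19 (adjusted p = 0.0044), and the remaining one was not called. The other probe set of PKM was not called either (adjusted p = 0.078).

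Genes of the malate-aspartate shuttle were higher at 1 dpn, where GPD1 was not called. Of 8 measured shuttle genes besides GPD1 (9 listed), 6 were higher and 0 lower at 1 dpn than at 94 dpc, with a median log2 difference of 1.78, where 13.7% of all genes were higher. GOT1, cytosolic aspartate aminotransferase, averaged 9326 ± 4453 at 1 dpn and 1837 ± 420 at 94 dpc, and was 4.58-fold higher (adjusted p = 9.5e-06). MDH1, cytosolic malate dehydrogenase, was 4.47-fold higher (adjusted p = 3.9e-07). The difference between GPD1 and these genes was not tested. Between 188 and 28 dpn, 4 shuttle genes were lower and 0 higher, where 12.5% of all genes were lower, with GOT1 at -1.12 (adjusted p = 0.0096) and MDH1 at -0.81 (adjusted p = 0.013), while GPD1 was at 0.71. SLC25A11, also among the 4, was at -0.70 (adjusted p = 0.042). It lost its call with median centring (adjusted p = 0.088) and with most single samples left out. At 188 dpn against 94 dpc 6 of the 8 were higher, against 19.5% of all genes, MDH1 by 0.79 (adjusted p = 0.0077), which was 0.38 and not called with quantile normalization.

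Of the genes listed with ME1, 6 of 7 were measured: ME2, ME3, IDH1, PGD, TALDO1 and TKT. Among these, 0 were higher and 3 lower at 188 than at 28 dpn, where 12.5% of all genes were lower. The 3 were ME2, PGD and TKT, and the count of lower genes was 0 with quantile normalization, 1 with median centring and 5 when only these stages were fitted. Of the 5 measured genes of glucose entry, lactate export and phosphofructokinase control (11 listed), 1 was higher and 4 lower in that comparison, against 5.78% and 12.5% of all genes. SLC2A3, among the 4, lost its call with quantile normalization (adjusted p = 0.12), median centring (0.1) and a pseudocount of 1 (0.051), and with most single samples left out. SLC2A4, the 1 higher gene, lost its call without 28 dpn replicate 6 and without 188 dpn replicate 2 or 3. Its other probe sets were not called in that comparison, at -0.13 (adjusted p = 0.8) and 0.39 (0.57). SLC2A1, a widely expressed glucose transporter, averaged 42.4 ± 28.5 at 188 dpn and 421 ± 81.1 at 94 dpc (log2 -3.02, adjusted p = 8.7e-08), and was -2.21 with a pseudocount of 64. SLC16A3, which exports lactate, was 1.86 higher at 28 than at 1 dpn (adjusted p = 0.0029), and 0.77 and not called without the samples of low GAPDH ratio (adjusted p = 0.11). LDHA was called in both cases.

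**Figure D4:**
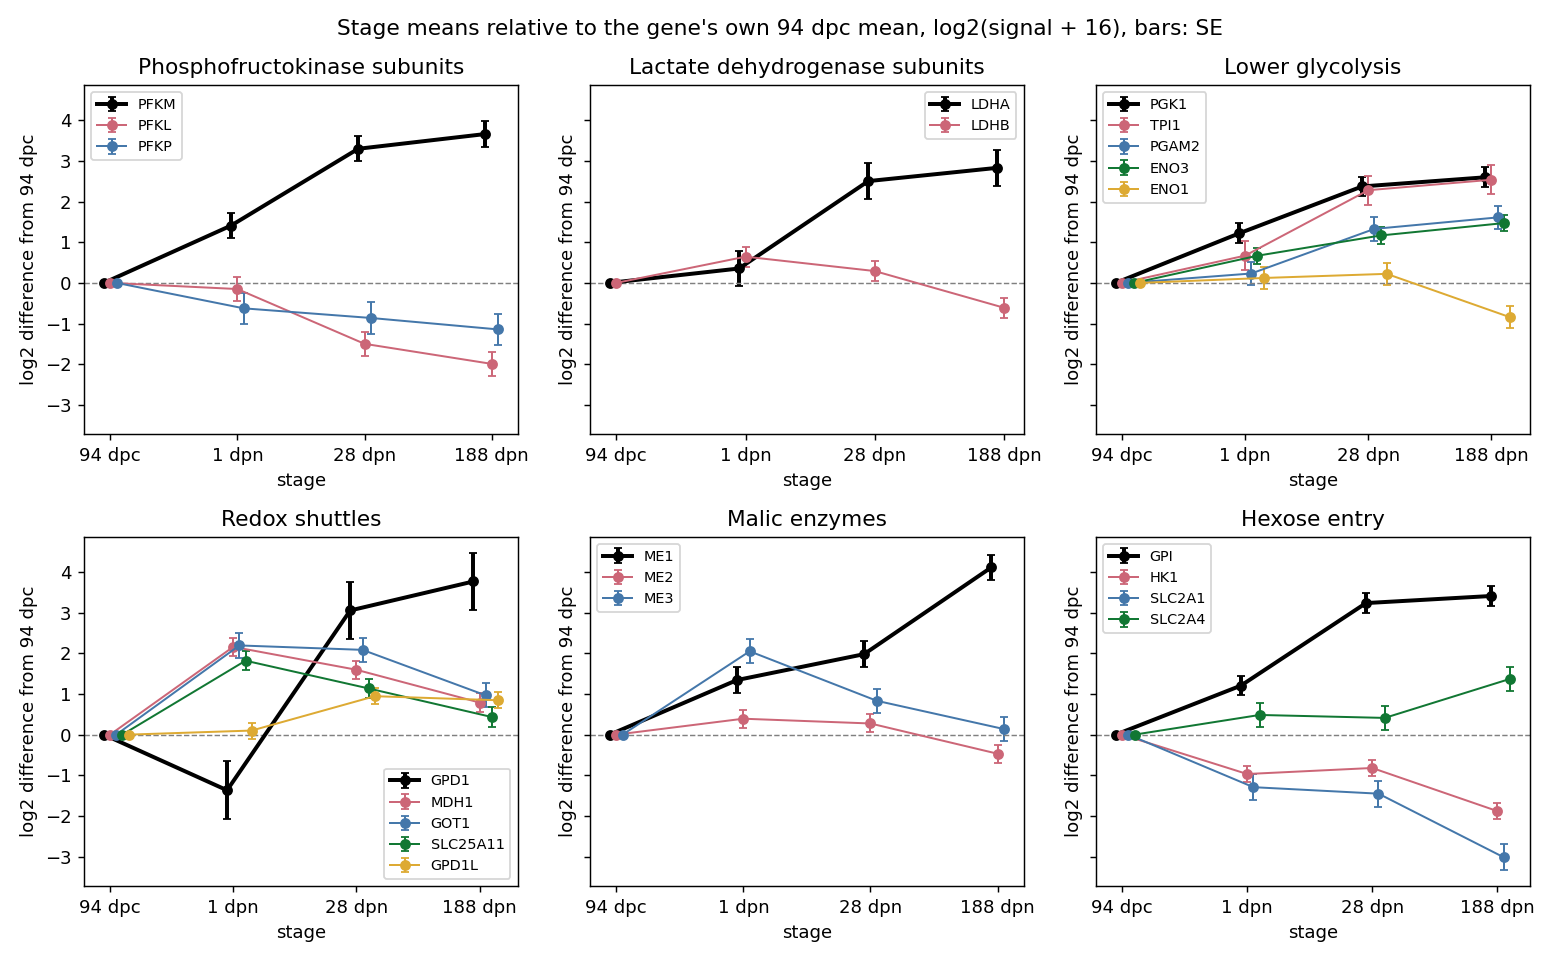
Stage mean of each gene minus its own mean at 94 dpc on log2(signal + 16), with SE as bars, for the 6 genes (thick black lines) and their isoforms or pathway neighbours (thin lines). PFKM ends at 3.66 where PFKL ends at -1.99. MDH1 and GOT1 have their highest means at 1 dpn, not called against 28 dpn (adjusted p = 0.077 and 0.85). GPD1 is at -1.37 at 1 dpn, which was not called.

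Genes whose signals were most like those of the 6 were ranked by Pearson correlation over the 23 samples among 4957 genes, as a description, since the samples share stages. PFKM was most like PPP1R1A (r = 0.978), an inhibitor of a protein phosphatase, GYG1 (0.970), glycogenin, and HMCES (0.970). GPI was most like ADSSL1 (0.985), the muscle adenylosuccinate synthase, PGM1 (0.980), phosphoglucomutase, which joins glycogen to glycolysis, and PPP1R1A (0.975). PGK1 was most like PPP1R1A (0.979), HMCES (0.969) and PYGM (0.968), the muscle glycogen phosphorylase. LDHA was most like FBP2 (0.976), the muscle fructose-bisphosphatase, SMIM4 (0.966) and AMPD1 (0.957), the muscle AMP deaminase. GPD1 was most like GAMT (0.980), of creatine synthesis, MYOM2 (0.968), a myomesin of the sarcomere, and PEBP1 (0.966). After the stage means were taken out, these correlations were between 0.707 (PFKM with GYG1) and 0.953 (GPD1 with MYOM2). The 1 dpn samples weigh heavily in them: the log2 SD of GPD1 was 2.47 at 1 dpn and 0.118 to 0.31 at the other stages. Taken apart in this way, LDHA with GPD1 had 0.967 within 1 dpn and 0.15 within the other stages, whereas PFKM with GPI had 0.675 and 0.681. ME1 was most like ALKBH5 (0.944), TMEM117 (0.936) and ABCF2 (0.922), which had 0.326, 0.538 and 0.226 after the stage means were taken out. These correlations use all samples, those of low GAPDH ratio included.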

How the data were processed

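The authors deposited linear signal intensities, 1 per probe set and array. The submitters' processing notes name GCOS 1.1.1 but not what it did, and the summarisation is not given in the sources used here. Per the labels' protocols, TRI Reagent was used for total RNA, and biotinylated cRNA was made from 0.5 ug. The 2% trimmed mean was 500.1 to 500.2 on every array, so the deposited intensities were taken as already scaled. Median signals were 120.8 to 168.8, and precision is limited by how few arrays a stage has.

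Signals were analysed as log2(signal + 16), and 1 mean per stage was fitted to the 23 arrays with limma 3.58.1 (lmFit, eBayes) in R 4.3.3. The 124 control probe sets were left out, and two-sided p-values were adjusted by Benjamini-Hochberg over the 23999 others. The fit was tested on simulated data. The platform annotation gave 1 symbol to 10099 probe sets, several to 198 and none to 13826. A gene was represented by its probe set of highest mean. Stages came from the labels, and replicate numbers only name samples. No arrays were identical.

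Genes named were the 6 enzymes, the 3 likest genes of each, and genes drawn from the up to 4 called genes of each pathway list and comparison with the largest change, not all of which are described, besides those said to be singled out. The members and lists were chosen with earlier results of these data known. Alternatives covered normalization, pseudocount, filtering, fitting options, probe set choice, the low GAPDH samples and leaving out each sample. Figures were drawn with matplotlib 3.10.9 (Python 3.11.15, pandas 2.3.3). No sequences were analysed here, and the planned description of promoter motifs was not run.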

Additional observations from a re-analysis of the deposited data

Results flagged for a closer look

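In 3 of the 28 stage groups of probe sets, 1 sample lay far from the other samples of its stage. The measure was its gap to the nearest sample over the whole range, both taken on the log2 scale of the fit. The signals given below are linear, so the gaps do not follow from them directly. Chance gives such a gap in about 1 in 20 groups. PFKM at 1 dpn was lowest in replicate 2, at 3501, with a gap of 0.658 of the range. GPI at 1 dpn was highest in replicate 1, at 23024, with a gap of 0.679. ME1 at 188 dpn was lowest in replicate 5, at 2078, with a gap of 0.719, and that sample was still above every sample of the earlier stages.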

How the results depend on the processing

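Of the 7 probe sets, 4, 5, 2, 7, 7 and 7 were called for 1 dpn against 94 dpc, 28 against 1 dpn, 188 against 28 dpn, 28 dpn against 94 dpc, 188 against 1 dpn and 188 dpn against 94 dpc. With single samples left out these counts were 4 to 6, 5, 2, 6 to 7, 7 and 7, and under the other alternatives 4 to 5, 4 to 5, 1 to 3, 6 to 7, 6 to 7 and 6 to 7. The count of 1 for 188 against 28 dpn came without dim probe sets, which removed the second probe set of ME1. No called difference of the 6 enzyme genes changed sign. The uncalled ones that did were LDHA for 1 dpn against 94 dpc, at -0.20 with quantile normalization and -0.034 without 1 dpn replicate 1 (range -0.034 to 0.84 with single samples left out), PGK1 for 188 against 28 dpn, at -0.015 with quantile normalization, and GPD1 for 1 dpn against 94 dpc, at 0.13 with the GAPDH ratio as covariate. Of the related genes, GAPDH for 188 dpn against 94 dpc was -0.10 with quantile normalization. The causes were not tested. The second ME1 probe set lost its call for 28 dpn against 94 dpc (log2 0.81, adjusted p = 0.04) with a pseudocount of 64 (adjusted p = 0.054), with trend and robust options (0.059) and with 8 of the 11 single samples left out (0.051 to 0.1), and passed for 1 dpn against 94 dpc with median centring (log2 0.83, adjusted p = 0.032). The scaling shifted all probe sets: the median log2 difference for 188 dpn against 94 dpc was -0.08 as deposited, 0.08 with quantile normalization and 0.22 with median centring, and 36.3%, 48.8% and 56.9% of called probe sets were higher. For 1 dpn against 94 dpc those shares were 31.2%, 47.3% and 59.4%, with medians of -0.11, 0.04 and 0.17, and for 28 dpn against 94 dpc 37.6%, 50.2% and 59.1%. The alternatives for pathway genes besides the 6 enzymes were chosen after seeing the data. No paired analysis was possible because replicate numbers follow the order of deposition and pair no samples.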
